A study of Mus musculus with 6 samples.

Results

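The signals of 7 genes of DNA methylation and demethylation were followed across mouse gonads: the methyltransferase genes Dnmt1, Dnmt3a and Dnmt3b, the cofactor gene Dnmt3l, the maintenance factor gene Uhrf1, and the demethylation genes Tet1 and Tet2. They were taken by gene symbol from the platform annotation, which gave 19 probe sets for these 7 genes, out of 34945 probe sets with 1 symbol for 18193 genes. A probe set is a group of short oligonucleotides on an Affymetrix array that together read 1 transcript or a few related ones. The samples were whole ovary and whole testis of C57BL/6 mice, an inbred strain bought from a breeder, at 15.5 days postcoitum (called fetal here), at 1 day after birth (neonatal) and at 10 weeks of age (adult). Each of the 6 groups had 1 array. The labels name no treatment or mutation and do not say how many animals were pooled. The series was designed to find genes of chromosome separation in the first meiotic division.

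DNA methylation places a methyl group on cytosine, mostly where C is followed by G. DNMT1, guided by UHRF1 to newly copied DNA, maintains the pattern when cells divide, while DNMT3A and DNMT3B write methyl groups on unmethylated DNA, with DNMT3L as a partner that has no catalytic activity of its own. TET1 and TET2 oxidise methylcytosine, a step on the way to its removal. In the mouse germ line the old pattern is erased in the fetus. New methylation is laid down in male germ cells before birth, and in oocytes only after birth, as they grow.

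The values are signals scaled to a common trimmed mean, with a floor of 75.3, the median of all scaled signals. A signal below the floor is treated as not measured, such signals have no order, and a ratio against one is a lower bound. Scaling each array to 9 hybridization controls instead, RNAs added before hybridization, turned some small differences, as stated with them. A gene was called different at a ratio of 4 or more, its signal being that of its brightest probe set. With 1 array per group there is no replicate check and no test, and precision is limited by how few arrays there are. As the only available yardstick, a log2 ratio is set beside the robust SD of that ratio between probe sets of the same gene, which covers no variation between animals. In whole gonads, fewer cells of a type and less RNA per cell cannot be told apart. Xist, which is expressed from the inactive X chromosome of females, lay between 1950 and 4085 on the ovary arrays and at or under 140 on the testis arrays.

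**Figure D1:**
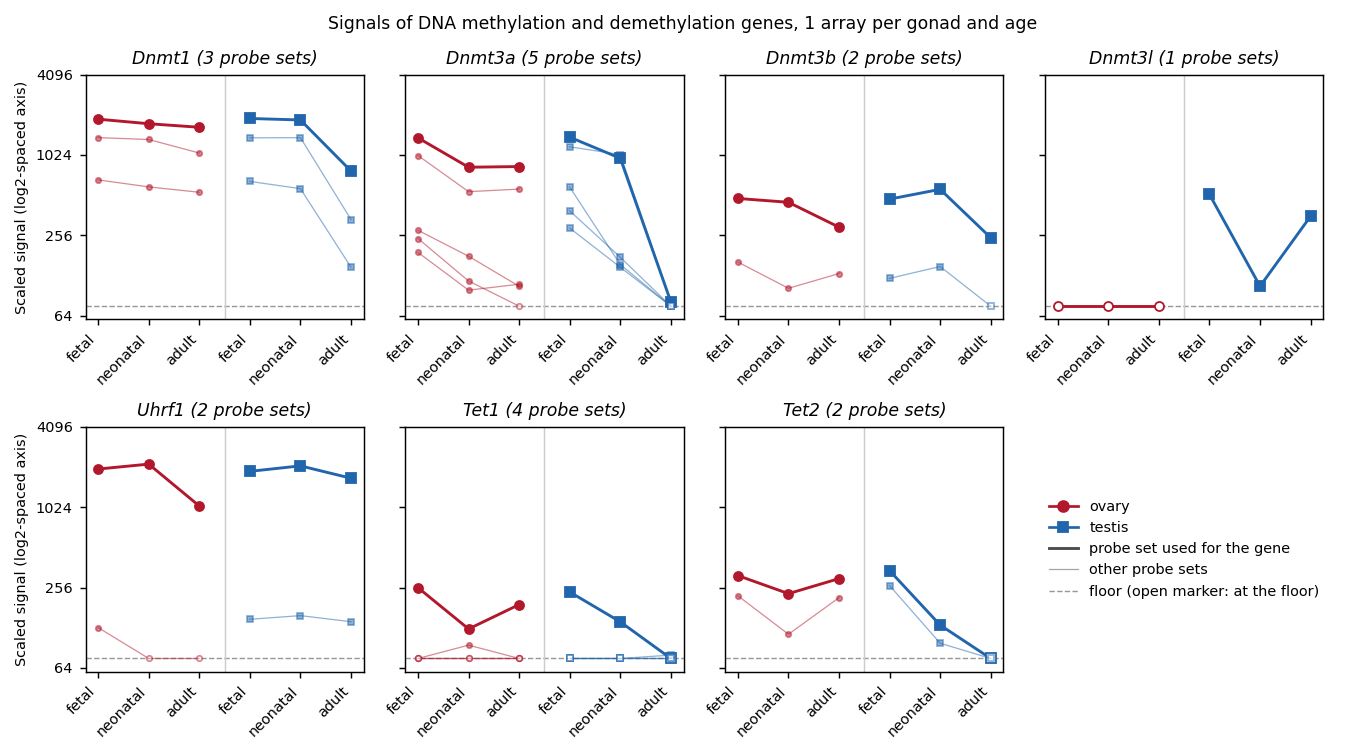
Scaled signal (log2-spaced axis) of every probe set of the 7 genes on the 6 arrays, ovary as red circles and testis as blue squares, with heavy lines for the probe set used for the gene and open markers for signals raised to the floor of 75.3. Dnmt3l is above the floor in the 3 testes and in none of the ovaries, while Dnmt3a, Tet1 and Tet2 are lowest in adult testis.

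Dnmt3l was the only member that differed by 4-fold or more between fetal ovary and fetal testis, where it was higher in testis. It was above the floor on the 3 testis arrays and on no ovary array. Its promoters are shown first because this gene carries the main contrast among the 7. RefSeq (build GRCm38.p6) lists 3 transcription starts for it, all on the plus strand of chromosome 10, and the 250 bases before each start follow, 5′ to 3′, with every CG dinucleotide in capitals. The window before the second start of Uhrf1, which was measured on all 6 arrays, is given for comparison, chosen from the 2 windows of that gene because it holds the E2F motif named with the counts. A window before a later start can hold sequence transcribed from an earlier one.

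Dnmt3l start 1, chr10:78042037-78042286: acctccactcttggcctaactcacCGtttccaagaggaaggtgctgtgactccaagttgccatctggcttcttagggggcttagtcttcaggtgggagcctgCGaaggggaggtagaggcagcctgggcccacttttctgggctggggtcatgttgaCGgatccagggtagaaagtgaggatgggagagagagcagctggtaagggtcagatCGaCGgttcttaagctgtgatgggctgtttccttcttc
Dnmt3l start 2, chr10:78049592-78049841: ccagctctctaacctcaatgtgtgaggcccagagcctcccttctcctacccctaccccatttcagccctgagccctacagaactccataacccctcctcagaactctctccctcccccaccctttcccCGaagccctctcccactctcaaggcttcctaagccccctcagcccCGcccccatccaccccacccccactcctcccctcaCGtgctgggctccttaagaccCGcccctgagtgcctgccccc
Dnmt3l start 3, chr10:78055085-78055334: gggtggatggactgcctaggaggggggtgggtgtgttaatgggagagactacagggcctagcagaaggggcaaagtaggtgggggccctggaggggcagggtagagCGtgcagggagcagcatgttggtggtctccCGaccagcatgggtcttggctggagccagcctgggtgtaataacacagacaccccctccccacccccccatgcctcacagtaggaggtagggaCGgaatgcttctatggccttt
Uhrf1 start 2, chr17:56304063-56304312: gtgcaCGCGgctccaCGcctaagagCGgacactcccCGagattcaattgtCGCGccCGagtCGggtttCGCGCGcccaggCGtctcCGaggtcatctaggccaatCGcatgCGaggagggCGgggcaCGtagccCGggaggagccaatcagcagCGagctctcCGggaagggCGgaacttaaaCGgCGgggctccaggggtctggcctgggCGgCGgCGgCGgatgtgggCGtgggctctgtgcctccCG

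The 3 Dnmt3l windows held 5, 4 and 3 CG dinucleotides, all below the median of 6 over 32851 windows of this length in the table. The Uhrf1 window shown held 30, a number that 5.94% of all windows reached, and the other Uhrf1 window held 10, which 37.8% reached. Among the 14 windows of the 7 genes the count ran from 2, before one start of Dnmt1, to 51 before the start of Tet2. Of 4 motifs searched on both strands, the E2F site (TTTCGCGC, TTTGGCGC, TTTCCCGC or TTTGCCGC) was in the Uhrf1 window above and in 1 Dnmt1 window, against 1.86% of all windows. E2F factors drive genes of DNA replication. The GC box GGGCGG was in 10 of the 14 windows, among them start 2 of Dnmt3l, against 32.7% of all. The windows before starts 1 and 2 of Dnmt3a overlap and share a GC box, so the windows are not all separate, and the share was not matched for CG content. The E-box CACGTG was in 2 of the 14, start 2 of Dnmt3l and 1 Dnmt3a window, against 6.02%. The CCAAT box (CCAAT) was in 4 of the 14, none of them of Dnmt3l, against 33.8%. A match describes the letters and shows no binding.

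In fetal testis Dnmt3l had a scaled signal of 518, in neonatal testis 106 and in adult testis 356. In fetal, neonatal and adult ovary its signals were 8.38, 33.7 and 71.8, all below the floor. The testis therefore lay above the ovary at each age, although neonatal testis was close to the floor and adult ovary just under it. The share of all genes with this order was not counted. In fetal gonads the ratio was at least 6.87-fold in favour of testis. Of all genes, 0.632% were called in that comparison in either direction, and of the members 1 of 7. The log2 ratio of -2.78 compares with a probe-set SD of 0.16. At 1 day the ratio was at least 1.41-fold, under the limit. In adults it was at least 4.73-fold in favour of testis. Within the testis the signal in the neonate was 4.87-fold lower than in the fetus, where 0.797% of all genes and 1 of the 7 members were called, and the adult was 3.35-fold above the neonate. The order of the arrays was fetal testis, adult testis, neonatal testis and then the ovaries. The first 2 differed by 1.45-fold, less than the probe-set SD between those arrays, and the ovaries have no order. A floor of 342 (the 75th percentile of all signals) ended the 3 calls on Dnmt3l. The gene has a single probe set, of the _s_at kind whose oligonucleotides match more than 1 transcript, so that no second set can be put beside it.

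Markers of fetal male germ cells were lower in fetal ovary, as Dnmt3l was, but parted from it on other arrays. Of 8 measured on that list, 3 were called lower in fetal ovary and none higher. They were Dppa4 (3426 in fetal testis and 147 in fetal ovary), a gene of pluripotent cells, and Piwil4 (597 and 21.1) and Tdrd9 (766 and 71.6), which act in the piRNA pathway that guides methylation to transposons in these cells. The summed signal of the list was 922, 3432 and 1377 in fetal, neonatal and adult ovary, and 7079, 2634 and 6125 in the testes. Neonatal ovary, where Dnmt3l was below the floor, was thus above neonatal testis. There Tdrd9 had 1066 against 292 in neonatal testis, Tdrd5 had 458 against 178, and with Piwil2 both were called higher than in fetal ovary. Ddx4 and Dazl, germ cell genes of both sexes, had signals of 1172 and 1916 in fetal ovary and of 1610 and 1222 in fetal testis, so germ cell RNA was measured in both. Their list of 7 was divided there. Sycp3 was called higher in fetal ovary (3715 against 578) and Dppa3 lower (253 against 1819), with 0.632% of all genes called. Tex101 was higher in fetal ovary by 3.64-fold, short of a call. In neonatal testis Ddx4 and Dazl had 1206 and 1615, while Dnmt3l was at 106. Of the 7 germ cell markers of both sexes only Dppa3 was called between neonatal and fetal testis. It was lower in the neonate by at least 24.2-fold (52.4 against 1819), as Dnmt3l was lower. The median log2 ratio of that list was -0.38, against -0.06 for all genes. Piwil4 was also called lower in neonatal than in fetal testis (4.02-fold). In adult testis Piwil4 was below the floor, unlike Dnmt3l, and Tdrd9 had 1423. Dppa4 was lower in adult testis (215) than in neonatal testis (857), opposite to Dnmt3l. The part of cell numbers in the Dnmt3l values was not tested.

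The 3 genes whose profile over the 6 arrays was closest to that of Dnmt3l were Utf1, Mageb16 and Tmc7. Closeness is the root mean square difference of log2 floored signals after each gene is centred on its own mean, among 15281 other genes that exceeded the floor somewhere. It was 0.53, 0.53 and 0.54, looser than for any other member. Utf1, a chromatin protein of pluripotent cells, had 779, 158 and 179 in the testes, from fetus to adult, and 79.2, 18.1 and 86.1 in the ovaries. Mageb16 had 437, 203 and 612 in the testes, and Tmc7 had 592, 340 and 841.

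**Figure D2:**
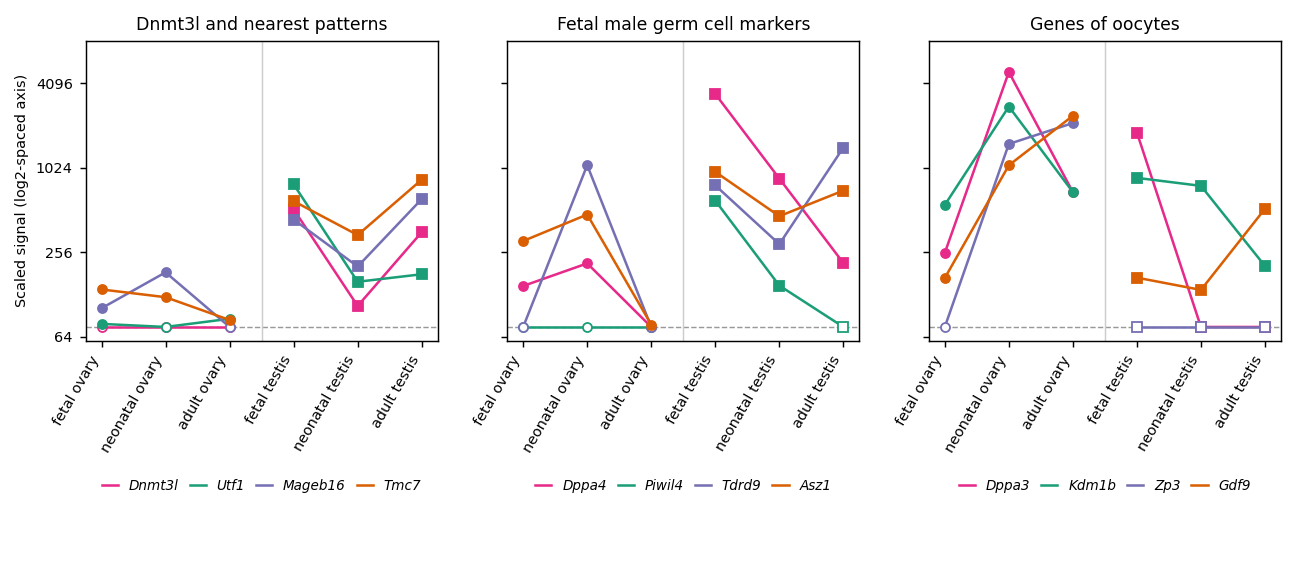
Scaled signal (log2-spaced axis, floored at 75.3, open markers at the floor) by array, circles for ovary and squares for testis, of Dnmt3l and its 3 nearest profiles (left), 4 fetal male germ cell markers (middle) and 4 genes of oocytes (right). Dnmt3l dips from 518 to 106 between fetal and neonatal testis, and stays at the floor in neonatal ovary, where Dppa3 and Kdm1b reach 4911 and 2787.

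No ovary array showed Dnmt3l above the floor. Of 13 oocyte markers, 12 were above the floor in neonatal ovary and 13 in adult ovary, but only 3 in fetal ovary, as in fetal testis. Neonatal ovary had 11 of 13 oocyte markers called higher than fetal ovary, against 0.989% of all genes called in either direction. Among them, Zp3, a gene of the egg coat, had 1509 in neonatal and 2126 in adult ovary, and the growth factor gene Gdf9 had 1065 and 2395. Most calls of the list between these 2 ages went the other way. In adult ovary 4 of the 13 were called lower and 1 higher, with 3.37% of all genes called. The list median log2 ratio was -0.41, and Figla fell from 2405 to 87.0. In the same comparison 5 of the 7 germ cell markers of both sexes were called lower in adult ovary and none higher. Ddx4 fell from 872 to 107 and Dazl from 893 to 132. Dnmt3l, at 71.8, lay just under the floor in adult ovary, and the part of germ cell numbers in that value was not tested. Dppa3, whose protein shields the maternal genome from TET enzymes after fertilisation, had 4911 in neonatal ovary, 253 in fetal ovary and 685 in adult ovary. Kdm1b, a histone demethylase gene needed for methylation of imprinted genes in oocytes, had 2787 in neonatal ovary against 556 in the fetus and 686 in the adult. That is a ratio of 5.02 over fetal ovary and of 4.06 over adult ovary. Both genes were thus highest on the neonatal ovary array, where Dnmt3l had 33.7.

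Dnmt3a, the gene of a de novo methyltransferase, was 11.9-fold lower in adult than in neonatal testis. Its brightest probe set had signals of 1373, 828 and 837 in the ovaries, from fetus to adult, and of 1390, 966 and 81.0 in the testes at the same ages. Adult testis stood apart from the other 5 arrays, close to the floor. The log2 ratio to neonatal testis was -3.58, with a probe-set SD of 0.60 and 21.0% of all genes called in either direction. Of the members, only Dnmt3a was called there. Adult ovary was 10.3-fold above adult testis, in a comparison in which 22.8% of all genes and 2 of the 7 members, Dnmt3a and Dnmt3l in opposite directions, were called. Shares of this size mean that a call between adult testis and another gonad is common. A floor of 342 ended both calls on Dnmt3a as well.

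The 5 probe sets of Dnmt3a were all near or below the floor in adult testis but had different profiles before it. In adult testis 2 sets were just above the floor, at 81.0 and 82.0, and the other 3 were below it and so not measured there. In fetal gonads the set 1423063_at had 1012 in ovary and 1177 in testis, which differ 1.16-fold, beside 1.01 for the brightest set. In neonatal gonads it had 543 in ovary and 1029 in testis, 1.89-fold apart, where the brightest set gave 1.17. The set 1423064_at was at 242 in fetal ovary and 587 in fetal testis (2.43-fold), and 1423066_at had 190 and 390, a ratio of 2.05, while 1423065_at had 279 and 290. The first 2 of these differences are larger than the probe-set SD of 0.16 (log2 ratios -1.28 and -1.03) but under the limit of 4-fold, which no set of Dnmt3a passed between fetal ovary and fetal testis. Sets 1423064_at and 1423066_at were also lower in neonatal than in fetal testis, 3.80-fold for 1423064_at and 2.23-fold for 1423066_at, against 1.44-fold for the brightest set. Dnmt3a is known to make a long protein and a shorter one from an internal start, the latter used in germ cells. The sources used here do not say which transcript each of these sets reads. Averaging all sets gave a log2 ratio of -0.31 between fetal ovary and fetal testis, against -0.02 for the brightest set.

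Dnmt3b, the other de novo enzyme gene, varied little. Its brighter set had signals of 483, 452 and 294 in the ovaries, from fetus to adult, and of 478, 565 and 245 in the testes. The adult arrays were the 2 lowest. The ratio of neonatal over adult testis was 2.31, a direction that turned (log2 ratio 0.12 for adult over neonatal) under scaling to hybridization controls, and no comparison passed the limit. The second set, dimmer, lay between 103 and 161 on the other 5 arrays and was below the floor in adult testis. In fetal gonads it had 161 in ovary and 122 in testis (1.32-fold), where the brighter set gave 1.01.

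The maintenance genes Dnmt1 and Uhrf1 were measured on every array by their brightest sets. Dnmt1 had signals of 1896, 1753 and 1649 in the ovaries, from fetus to adult, and of 1919, 1871 and 775 in the testes. With the arrays ranked by signal, steps between neighbours were within the probe-set SD except the last, from adult ovary to adult testis, of 2.13-fold. The other 2 Dnmt1 sets put adult testis 4.11-fold and 3.88-fold below neonatal testis, against 2.41-fold for the brightest, whose direction turned (log2 ratio 0.05) under scaling to hybridization controls. Of the 3 sets, 1 passed the limit. Uhrf1 had 1977, 2153 and 1045 in the ovaries and 1900, 2089 and 1688 in the testes. Its lowest array was adult ovary, 2.06-fold under neonatal ovary, with a log2 ratio of -1.04 beside an SD of 0.32. No member was called between those ovaries, where 3.37% of all genes were. Its second set had between 128 and 158 in the testes and fetal ovary and was below the floor in neonatal and adult ovary, so the sets disagree on neonatal ovary, which was the highest array by the first.

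Proliferation markers were lower in adult than in neonatal testis. Of the 13 measured, 6 were called lower in adult than in neonatal testis, where 21.0% of all genes were called in either direction. The list median log2 ratio was -1.91 against -0.30 for all genes. In adult over neonatal ovary the median was -0.78, with none called, against 3.37% of all genes. Under scaling to hybridization controls 1 was called lower and 1 higher in adult over neonatal testis, and none in the ovary comparison. Mcm6, which encodes part of the replicative helicase, had 3798 in neonatal testis, 474 in adult testis and 1618 in adult ovary. Uhrf1 had the opposite order to Mcm6 in the adults, with 1045 in ovary and 1688 in testis. The list was divided in that comparison. At 2-fold, a limit that 44.6% of all genes passed there, 6 of the 13 were higher in adult ovary and 1, Ccnb2, was lower (1210 against 3713). Birc5 (1187 and 1693) and Top2a (1700 and 2124) were also lower in adult ovary than in adult testis, by less than 2-fold. The part of dividing cells in the Dnmt1 and Uhrf1 values was not tested.

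**Figure D3:**
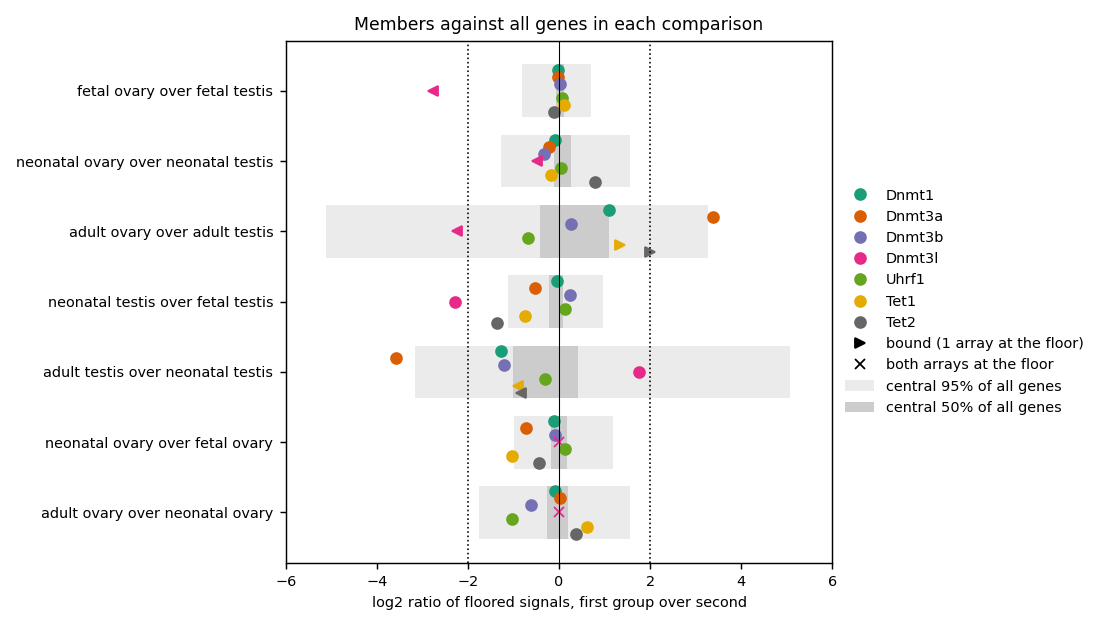
The log2 ratio of floored signals of each member (coloured points, triangles for bounds, crosses where both arrays are at the floor) in the 7 comparisons, over the central 95% (light bars) and 50% (dark bars) of all 18193 genes, with dotted lines at 4-fold. Dnmt3l lies past the line in fetal ovary over fetal testis at -2.78 and in neonatal over fetal testis at -2.28, and Dnmt3a lies past it where adult testis is compared, at 3.37 and -3.58.

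The demethylation genes Tet1 and Tet2 were below the floor in adult testis and above it on the other 5 arrays. Tet1 had signals of 255, 125 and 191 in the ovaries, from fetus to adult, and of 237, 142 and 4.64 in the testes. Tet2 had 315, 230 and 299 in the ovaries and 343, 134 and 39.9 in the testes. For both genes the fetal arrays were the 2 highest and the neonatal ones lower. Adult ovary was at least 2.54-fold above adult testis for Tet1 and at least 3.97-fold for Tet2, just short of a call. Tet2 was 2.56-fold lower in neonatal than in fetal testis (log2 ratio -1.35, SD 0.22), and its second set gave 2.70-fold. Tet1 was 2.04-fold lower in neonatal than in fetal ovary (log2 ratio -1.03, SD 0.28). Between those ovaries 0.989% of all genes and no member were called. The 3 other sets of Tet1 did not follow this profile, since 2 were below the floor on all 6 arrays and 1 was above it on 2 arrays, at 94.8 in neonatal ovary and 79.8 in adult testis. The values of Tet1 therefore rest on 1 probe set, and those of Tet2 on 2 that share their order from fetal to adult testis. Tet3, the third gene of this family, was below the floor on all arrays with its single probe set.

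In neonatal gonads no member was called, against 2.36% of all genes. Among the brightest sets Tet2 had the largest measured ratio, 1.72-fold higher in ovary, but its second set gave 1.17-fold, within the probe-set SD. Dimmer sets of Dnmt3a (1423063_at, 1.89-fold) and Uhrf1 (1415811_at, at least 2.09-fold) were lower in ovary. For Dnmt1, Dnmt3a, Dnmt3b, Uhrf1 and Tet1 the ratios were at most 1.25-fold in size, and for each of these 5 the direction was not the same under all 5 scalings tried. In fetal gonads the brightest sets of the 6 members other than Dnmt3l had log2 ratios between -0.12 and 0.11, within the probe-set SD of 0.16. Those of Dnmt1, Dnmt3a, Dnmt3b and Uhrf1 changed sign with the scaling. Dimmer sets exceeded that SD for Dnmt3a (-1.28, -1.03 and -0.22), Dnmt3b (0.41), Tet2 (-0.25) and Uhrf1 (-0.21). The dimmer sets of Dnmt1 and the set 1423065_at of Dnmt3a (-0.06) stayed within it.

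The adult testis and neonatal ovary arrays stood apart by Gapdh and by the hybridization controls, but not alike by Actb. The ratio of 3′ to 5′ signal of Gapdh, a measure of RNA integrity, was 2.36 and 3.12 on them and 1.32 to 1.45 on the others, and the mean signal of the hybridization controls was 1170 and 1525 against 2206 to 2708. The 3′ to 5′ ratio of Actb was lowest in adult testis (1.81), and that of neonatal ovary (3.28) lay within the 2.91 to 3.78 of the other 4 arrays. Scaling to those controls moved the median log2 ratio, over genes that both arrays measured above the floor, from -0.50 to 0.84 between adult and neonatal testis. Under it Dnmt1 and Dnmt3b turned to 0.05 and 0.12 and Uhrf1 to 1.01. Dnmt3a stayed called lower at -2.26, and Dnmt3l became called higher at 3.07. Such a change of scale shifts all genes of an array alike. For a gene above the floor on both arrays, it therefore leaves the position against that median largely as it was. This does not hold for ratios with an array at the floor, such as those of Tet1 and Tet2 in adult testis. The adult testis array also held RNA of late germ cells, whose 10 markers summed to 86243 there and to at most 577 on the other arrays, while Sertoli cell markers summed to 20424 in adult and 42167 in neonatal testis. The part of these in the adult values was not tested.

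At a looser limit of 2-fold, 1 of the 7 members differed in fetal gonads (2.95% of all genes), none in neonatal gonads (9.6%) and 5 in adult gonads (44.6%). Along the testis series 2 differed between fetus and neonate (5.72% of all genes) and 4 between neonate and adult (43.1%). Along the ovary series 1 differed at each step, Tet1 from fetus to neonate (6.07%) and Uhrf1 from neonate to adult (12.7%). The 2 members of the fetal to neonatal testis step were Dnmt3l and Tet2, both lower in the neonate.

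Genes that work with the 7 members were taken from 6 lists and compared at the same limit of 4-fold. In fetal gonads only Dppa3 among their 59 measured genes was called (0.632% of all genes were), 7.18-fold higher in testis (1819 against 253). In neonatal gonads, with 2.36% of all genes called, it was again the only one, at least 65.2-fold higher in ovary. Between adult and neonatal testis 13 of the 59 were called, a share of 22.0% that is near the 21.0% of all genes, so the counts that follow describe the lists and do not set them apart. Of 9 partners of maintenance methylation 2 were lower and none higher: Cdca7, which recruits the remodelling enzyme HELLS, at least 9.89-fold (745 in neonatal testis), and Lig1, the DNA ligase of replication, 4.46-fold. Of 8 genes that protect marks or imprints, Ctcf, a factor that binds imprinting control regions, was lower at 4.11-fold. Of 9 histone enzymes Nsd1 was lower at 4.20-fold, and Suv39h2 was higher by at least 5.10-fold, although its other sets had 108 and 11.5 in adult testis. NSD1 places a histone mark that DNMT3A recognises.

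Of 15 demethylation and base excision repair genes, Ung, which removes uracil from DNA, was 8.85-fold lower in adult than in neonatal testis and none was higher. Of 7 readers of methylated DNA, Zbtb33 was 7.53-fold lower, and Mbd3l1, a testis form of the MBD3 family, was higher by at least 38.1-fold, with 2865 in adult testis and no other array above the floor. In the supply of methyl groups 4 of 11 genes were lower, among them Mthfd1 (6.65-fold), Ahcy (5.68-fold) and Shmt2 (4.95-fold), enzymes of one-carbon metabolism. Bhmt, which makes methionine from betaine, was higher at 39.1-fold (3191 against 81.5). The list medians lay between -1.26 and 0.21, beside -0.30 for all genes and -0.91 for the 7 members. With the arrays scaled to hybridization controls, 1 gene of these 6 lists was called lower and 7 higher.

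**Figure D4:**
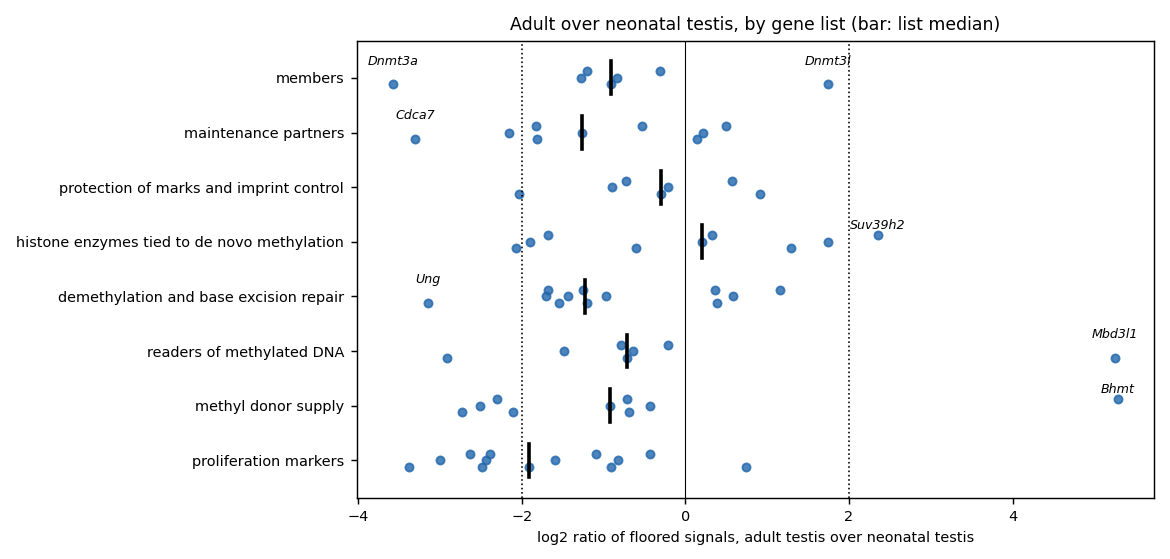
The log2 ratio of floored signals, adult over neonatal testis, of each measured gene of the members, the 6 pathway lists and the proliferation markers (points), with list medians as black bars and dotted lines at 4-fold. Dnmt3a at -3.58 is the lowest member and Dnmt3l at 1.74 the highest, Bhmt and Mbd3l1 lie far to the right, and the proliferation list has the lowest median at -1.91.

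The profiles nearest to the other members were closer than those found for Dnmt3l. Dnmt1 was followed most closely by Pofut2, Copg1 and Sike1, each at 0.05 in log2 units. Copg1 encodes a coat protein of transport vesicles and had signals of 1199 and 1248 in fetal ovary and testis and of 476 in adult testis. For Dnmt3a the nearest were Zfp467, Pip4p2 and Zfp618 (0.12 to 0.13). For Dnmt3b they were Nsmce2, Dnajc9 and Msh6 (0.07 to 0.09), the last of which acts in DNA mismatch repair. For Uhrf1 they were Prim2, a subunit of the primase of DNA replication, Sort1 and Mapk11 (0.08 to 0.10). For Tet1 they were Exo5, Slc66a1 and Srek1 (0.07 to 0.10), and for Tet2 Cebpd, Tgds and Fgfr2 (0.12 to 0.14). With 6 arrays and 15281 genes, close profiles are found for any gene of small range.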

How the data were processed

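Total RNA of whole ovaries and testes was labelled as biotin cRNA and hybridised to Affymetrix arrays, 1 array per group, per the labels' protocols. The deposited table holds 1 linear intensity for each of 45101 probe sets and array. Per the submitters' processing notes GCOS, version 1, was used, with no role stated. The sources used here do not say which background correction or scaling the authors applied. The deposited intensities were scaled to a common 2% trimmed mean and raised to a floor, the median of all scaled signals, and log2 ratios were taken. Genes were named from the platform annotation, with the brightest probe set standing for a gene. A call was a ratio of 4 or more. With 1 array per group no test was run. In each gene list, up to 4 called genes with the largest ratios were named, and for each member the 3 nearest profiles. Other genes were named after their values were seen, as markers or as members of a list or family. Among them are Ddx4, Dazl, Zp3, Gdf9, Tet3, Ccnb2, Birc5, Top2a, Tex101 in fetal gonads, and Dppa4 and Tdrd9 in adult testis. The members and lists were chosen with earlier results of these data known. Promoter sequences are from RefSeq, GRCm38.p6, matched by symbol for all 7 members. Alternatives covered scaling, floor, probe set choice and the limit, and the calling code was tested on simulated data. Python 3.11.15, numpy 2.4.6, pandas 2.3.3, scipy 1.17.1 and matplotlib 3.10.9 were used.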

Additional observations from a re-analysis of the deposited data

Results flagged for a closer look

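Between neonatal and adult gonads, the brightest sets of Tet1 and Tet2 moved in opposite directions in ovary and testis. The log2 ratio of adult over neonatal signal for Tet1 was 0.61 in ovary and -0.91 in testis, a difference of 1.52. For Tet2 it was 0.37 in ovary and -0.83 in testis, a difference of 1.21. Adult testis was at the floor for both of these sets, so the testis values are bounds on the size. The probe-set SD was 0.32 for the ovary step and 0.60 for the testis step. The second Tet2 set gave 0.91 in ovary and -0.38 in testis. The Tet1 set 1419896_at, near or below the floor on all arrays, went the other way in both gonads, with -0.33 in ovary and 0.08 in testis. With 1 array per group the difference was not tested. Each direction of the brightest sets was the same under the 5 scalings tried. The neonatal ovary array, which has the highest 3′ to 5′ ratio of Gapdh, and the adult testis array, which has the second highest, both enter these values. By the 3′ to 5′ ratio of Actb adult testis was lowest (1.81) and fetal ovary highest (3.78). The part of RNA quality was not tested.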

How the results depend on the processing

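No paired analysis was possible because each group has 1 array. The counts of members called at 4-fold were recomputed under each alternative. The share of all genes called moved with the setting as well. In fetal gonads it was 0.632% in the main setting, 0.148% with the floor at the 75th percentile and 1.15% with it at the 25th. In neonatal gonads these shares were 2.36%, 0.792% and 3.87%. With the floor at 342 (75th percentile) the counts became 0 for fetal ovary over fetal testis (from 1), adult ovary over adult testis (from 2), neonatal over fetal testis (from 1) and adult over neonatal testis (from 1). With the floor at 22.2 (25th percentile), or with 16 added and no floor, the adult gonads gave 4 and adult over neonatal testis 2. Scaling to hybridization controls also gave 2 for the latter. The signals as deposited and scaling to the same median gave 3 in adult gonads, where Tet2 passed the limit (log2 ratios 2.08 and 2.01). Leaving out probe sets of the _x_at, _s_at and _a_at kinds removed Dnmt1, Dnmt3b and Dnmt3l. Fetal gonads and neonatal over fetal testis then gave 0 and adult gonads 1. With a limit of 2-fold the counts were 5 in adult gonads, 2 for neonatal over fetal testis, 4 for adult over neonatal testis, and 1 each for neonatal over fetal ovary and adult over neonatal ovary. The cause of these changes was not tested beyond what each alternative itself removes. Of 420 single ratios under the alternatives, 344 moved by less than the probe-set SD, 76 moved further, and of the ratios that were called none changed sign. Signals near the floor limit what can be said of Dnmt3l in ovary and of Tet1 and Tet2 in adult testis.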
